A study of Homo sapiens with 12 samples.

Results

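The genes described here are 33 NRF2 targets and antioxidant enzymes, chosen as a fixed list of symbols that contains the transcription factor NRF2 (gene NFE2L2), its inhibitor KEAP1 and 31 genes of glutathione, thioredoxin, NADPH, iron, aldehyde, peroxide and conjugation chemistry. Each of the 33 symbols matched 1 of the 62703 Ensembl gene identifiers, and 29 passed the filter on low values, which left 14639 genes for testing. RNA-seq was performed on HK2 cells, an immortalised human proximal tubular line, in 4 groups of 3 libraries. The NG group was kept in 5.5 mM glucose with a control vector, the HG group in 50 mM glucose, the si-FGF9 group in 5.5 mM glucose with an siRNA against FGF9 delivered by lipofectamine, and the HG+OE-FGF9 group in 50 mM glucose with a vector carrying FGF9, a secreted growth factor. These glucose levels are those of the labels and methods, while another passage of the study describes the NG medium as containing mannitol, an osmotic control. Which medium the NG libraries had cannot be told, and this bears on every difference from NG. No non-targeting siRNA and no control vector in 50 mM glucose is described, nothing in the labels says whether the 3 libraries of a group came from separate cultures, and p-values therefore measure only the spread between these libraries.

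FGF9 was listed at 0 TPM, a share of the transcripts of a library, in all NG, HG and si-FGF9 libraries and at 3.34, 4.03 and 3.82 TPM in the HG+OE-FGF9 libraries. In these libraries the knockdown could therefore not be checked on its target, whereas the overexpression could. The study also measured FGF9 by RT-qPCR in the same groups and detected it in NG. Its mean there was lower in si-FGF9 than in NG, a difference that did not reach the study's significance level, and higher in HG+OE-FGF9. Of 12 proximal tubule markers only 3 reached 1 TPM in any library, and LRP2 and CUBN, the endocytic receptors of that segment, did not exceed 0.02 TPM. Of the general epithelial markers 5 of 6 were present, with KRT8 at 389 to 678 TPM, whereas CDH1, the gene of E-cadherin, did not exceed 0.28 TPM. In the other lists 3 of 5 fibroblast markers and 1 of 3 leucocyte markers reached 1 TPM, and 0 of 3 endothelial markers did. HG replicate 3 stood apart from the other HG libraries: over 625 genes with at least 100 TPM in every library, the SD of its log2 ratio to HG replicates 1 and 2 was 0.52 and 0.66, against 0.30 between those replicates. A library stood apart in each other group as well. The SD was 0.255 and 0.268 for NG replicate 1, against 0.0729 between NG replicates 2 and 3. It was 0.336 and 0.351 for si-FGF9 replicate 3, against 0.106 between replicates 1 and 2, and 0.355 and 0.348 for HG+OE-FGF9 replicate 3. The same SD was 0.05 between HG+OE-FGF9 replicates 1 and 2, the closest pair of libraries within a group, and since the sequencing depth is unknown it could not be tested whether that pair differed by more than sampling noise.

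In resting cells KEAP1 holds NRF2 in the cytoplasm and marks it for degradation by the proteasome. Oxidants and electrophiles modify cysteines of KEAP1, newly made NRF2 then enters the nucleus, pairs with a small MAF protein and binds antioxidant response elements near the genes of glutathione synthesis, the thioredoxin system, NADPH supply, quinone reduction and iron storage. NRF2 activity is set largely at the level of the protein, so an mRNA level of NFE2L2 is not a measure of that activity. In the kidney tubule, whose cells depend on mitochondrial respiration, catalase, the superoxide dismutases and the glutathione peroxidases remove the superoxide and peroxide that respiration forms.

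The core of the antioxidant response element, TGACNNNGC, was searched on both strands of RefSeq promoter windows of GRCh38.p14 that hold 250 bases before and 50 bases after each annotated start. A window was present for 26 of the 33 genes, and 9 of these (PGD, GCLM, EPHX1, ME1, GSTP1, MGST1, TXNRD1, GPX2 and KEAP1) held the letters in at least 1 window, or 34.6%, beside 16.1% of all 27305 genes with a window. HMOX1, AKR1B10, FTH1, GSR, PRDX1, SOD1 and ABCC1 had no window. The stretches below are the matches that lie wholly before the start in GCLM, ME1, GSTP1 and TXNRD1, which passed the criteria for differential expression in at least 1 comparison, each with 20 flanking bases and the match in capitals, written 5′ to 3′ on the strand of the gene. They lie at chr1:93909436-93909484 (minus strand, GCLM), chr6:83431160-83431208 (minus, ME1), chr11:67583726-67583774 (plus, GSTP1), chr12:104215660-104215708 (plus, the upstream TXNRD1 start) and chr12:104286910-104286958 (plus, another TXNRD1 start).
GCLM: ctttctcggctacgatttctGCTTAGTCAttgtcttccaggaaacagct
ME1: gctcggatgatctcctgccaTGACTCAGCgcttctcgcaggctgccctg
GSTP1: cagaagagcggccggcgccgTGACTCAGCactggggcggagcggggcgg
TXNRD1 upstream start: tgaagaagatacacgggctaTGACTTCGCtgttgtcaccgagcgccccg
TXNRD1 other start: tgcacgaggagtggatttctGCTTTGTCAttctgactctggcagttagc
The match began at position -34 from the start in GCLM, -137 in ME1, -66 in GSTP1, and -99 and -102 in the TXNRD1 windows, and in GCLM and the second TXNRD1 window it was read on the opposite strand. The ME1 and GSTP1 matches also contain TGACTCA, the AP-1 motif, so the letters do not separate these factors. A match is a description of the sequence only, and these genes differed in direction: GSTP1 was higher and GCLM, ME1 and TXNRD1 were lower than NG under the conditions described next.

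Genes were called differentially expressed by the criteria of the study, an absolute log2 change of 1 or more together with an unadjusted p below 0.01, here from limma on log2(TPM + 1). With HG versus NG, 8 of the 29 tested genes were lower and 0 higher, while 22.7% and 1.65% of all tested genes were called lower and higher. With si-FGF9 versus NG, 12 were lower and 1 higher, beside 42.2% and 5.36% of all genes. With HG+OE-FGF9 versus HG, 1 was lower and 1 higher, beside 2.67% and 2.94%. At a Benjamini-Hochberg adjusted p below 0.05 regardless of fold, 12 were lower and 6 higher in HG (40.5% and 8.53% of all genes), 15 lower and 7 higher in si-FGF9 (57.7% and 11.6%), and 3 lower and 3 higher in HG+OE-FGF9 versus HG (4.71% and 4.82%). The shares of the list that were lower in HG and si-FGF9 therefore stood close to those of all genes. The HG and si-FGF9 groups were both compared with the same NG libraries, and the HG libraries also serve as the reference for FGF9 overexpression. The summed level of the 5 fibroblast markers moved with these groups, at 62.4 to 89.2 TPM in NG, 17.1 to 40.9 in HG, 11.6 to 21 in si-FGF9 and 11.6 to 22.4 in HG+OE-FGF9, with LUM the largest part, COL1A2 never above 0.22 TPM and PDGFRB never above 0.41, and its part in the results was not tested. The summed level of the 12 proximal tubule markers, mostly GGT1, went the other way, from 73.6 to 86.2 TPM in NG to 99.4 to 141 in HG and 177 to 197 in si-FGF9, and was 84.7 to 92.9 TPM in HG+OE-FGF9; its part was not tested either. As these are bulk libraries, fewer cells of a kind and less RNA per cell cannot be told apart.

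**Figure D1:**
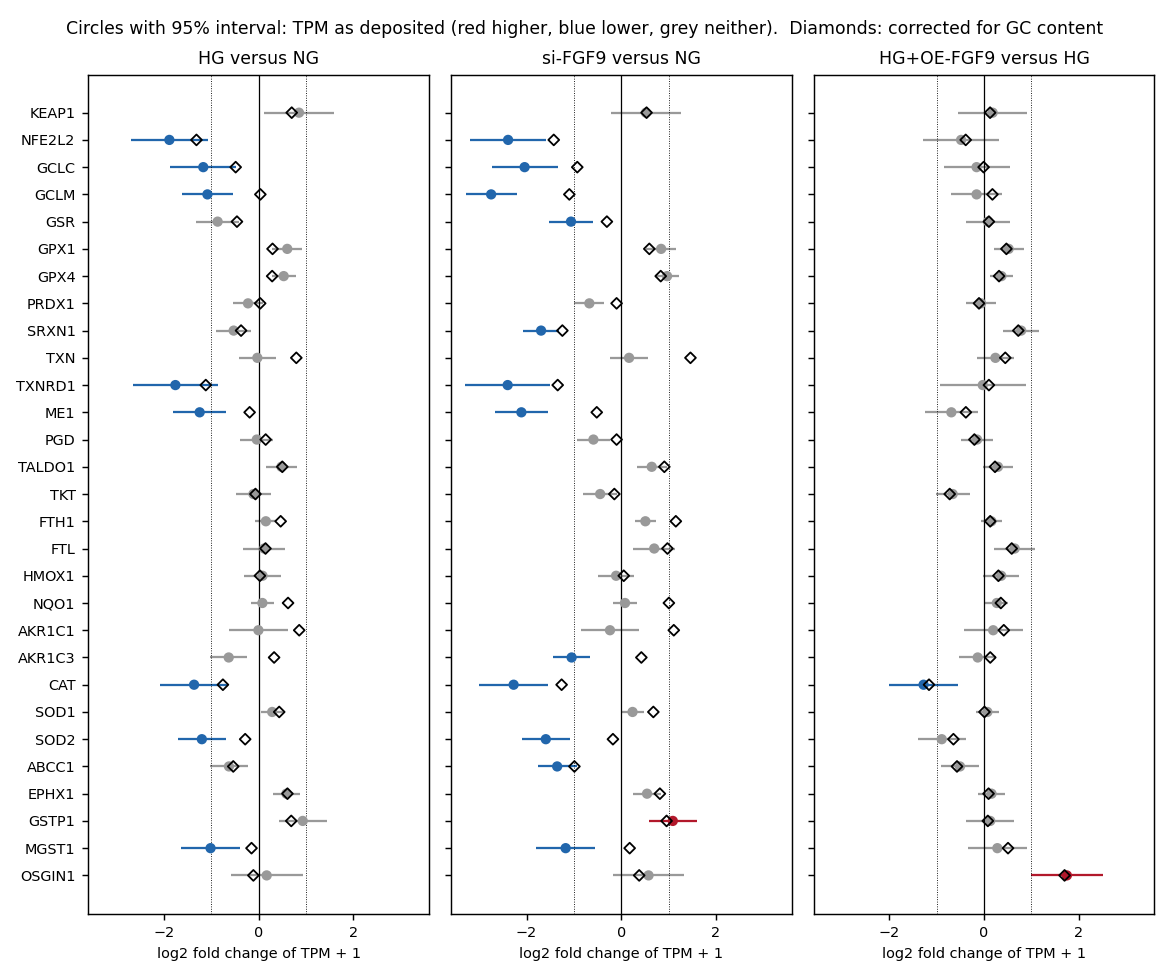
Log2 fold change of TPM + 1 of the 29 tested genes in the 3 comparisons. Circles with 95% confidence intervals are values as deposited (red, called higher; blue, called lower; grey, neither), open diamonds are values after correction for GC content, and dotted lines mark a change of 1; in si-FGF9 12 genes are blue, and most of their diamonds lie nearer 0.

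The median of all genes was itself shifted: the median log2 difference over all tested genes was -0.39 for HG and -0.79 for si-FGF9, against -0.04 and -0.45 over the 29 genes, and it was -0.13 against 0.13 in HG+OE-FGF9 versus HG. With median-of-ratios scaling, which brings the median of all genes to 0.00 in HG and -0.01 in si-FGF9, the calls were split otherwise. NFE2L2 and TXNRD1 were then lower in HG (2 genes; 8.47% of all genes) and KEAP1, GPX1, GPX4, EPHX1 and GSTP1 higher (5 genes; 7.26%). In si-FGF9 the lower calls were then NFE2L2, GCLC, GCLM, TXNRD1, ME1 and CAT (6 genes, 17.8%), and 12 genes were higher (18.9%). The 12 higher genes were KEAP1, NQO1, TALDO1, FTL, FTH1, OSGIN1, GPX1, GPX4, TXN, SOD1, EPHX1 and GSTP1. In HG+OE-FGF9 versus HG the calls stayed at 1 lower (1.92%) and 1 higher (3.45%).

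Fold changes also followed the GC content of the transcripts. Over the 29 genes, Spearman's rho between GC content of the longest transcript and log2 fold change was 0.79 in HG and 0.76 in si-FGF9 versus NG and 0.55 in HG+OE-FGF9 versus HG, as a description over genes that share libraries, beside 0.64, 0.57 and 0.29 over 14264 tested genes. The 12 genes lower in HG at an adjusted p below 0.05 had a median GC content of 44.5% and the 6 higher genes one of 59.5%. After a correction that removes the trend of each library with GC content, NFE2L2 and TXNRD1 remained called lower in HG (2 genes beside 3.09% of all genes; 0 higher beside 3.88%). In si-FGF9, NFE2L2, GCLM, TXNRD1, SRXN1 and CAT remained lower (5 genes beside 11.9%), and NQO1, AKR1C1, FTH1 and TXN, none of them called without the correction, were higher (4 genes beside 12.7%). In HG+OE-FGF9 versus HG, CAT remained lower (1 gene beside 2.14%) and OSGIN1 higher (1 gene beside 3.18%). How much of the trend came from the libraries and how much from the cells was not tested.

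**Figure D2:**
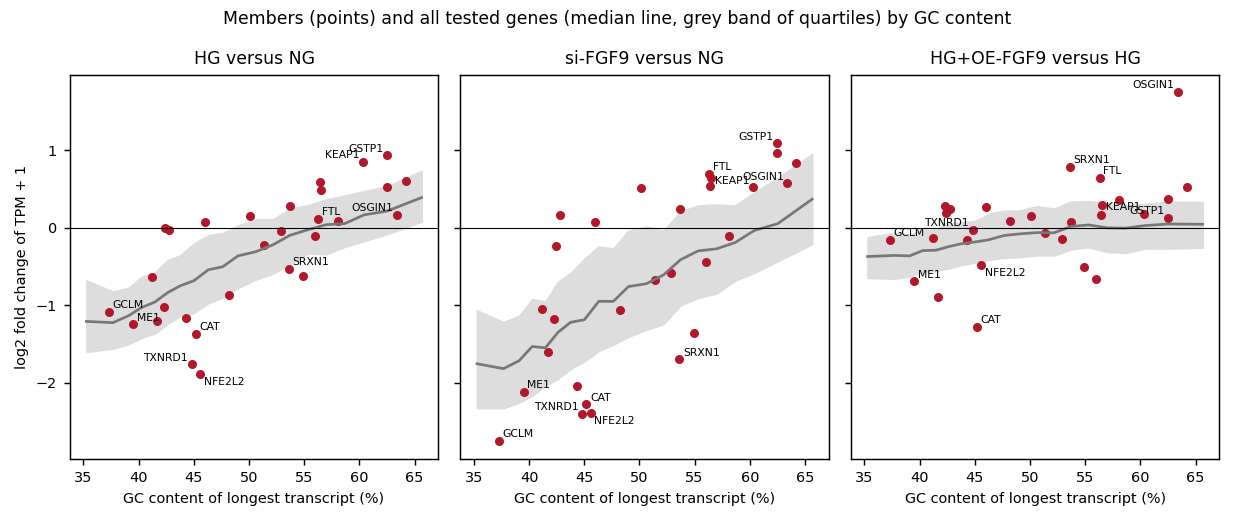
Log2 fold change of the 29 tested genes (red points) against the GC content of their longest transcript in percent, with the median (line) and quartiles (grey band) of all tested genes in bins of GC content, for the 3 comparisons. The points climb with GC content in HG and si-FGF9 versus NG along with the grey band, and OSGIN1 in HG+OE-FGF9 versus HG, NFE2L2 and TXNRD1 in HG and SRXN1 in si-FGF9 lie well outside it.

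The mRNA of NRF2 itself was among the most reduced of the list. NFE2L2 (ENSG00000116044) stood at 77.5, 59.2 and 54.6 TPM in NG replicates 1 to 3, at 16.3, 8.49 and 30.6 TPM in HG, at 12.8, 13.5 and 8.08 TPM in si-FGF9 and at 9.75, 9.57 and 15.7 TPM in HG+OE-FGF9. All 9 libraries outside NG lay below the lowest NG library, and HG replicate 3 was the closest to it. NFE2L2 fell to 0.29 of the NG mean in HG (log2 fold change -1.89, SE 0.37, limma, Benjamini-Hochberg adjusted p = 0.00222) and to 0.18 in si-FGF9 (-2.39, SE 0.37, adjusted p = 0.000119). The calls held after GC correction at -1.31 and -1.43, and leaving out single libraries gave -2.32 to -1.45 in HG. NFE2L2 did not pass between HG+OE-FGF9 and HG, where the difference was -0.48 with a 95% interval of -1.29 to 0.32.

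KEAP1 (ENSG00000079999), the adaptor that presents NRF2 for ubiquitination, was above all NG libraries in 8 of the other 9. Its levels were 26.3, 23.1 and 26.0 TPM in NG, 59.2, 74.9 and 22.04 TPM in HG, 32.4, 33.9 and 44.2 TPM in si-FGF9 and 57.1, 52.8 and 48.2 TPM in HG+OE-FGF9. HG replicate 3 lay below every NG library while the other HG libraries were above them, so HG and NG overlapped. The difference of HG from NG did not pass (log2 fold change 0.85, SE 0.34, limma, Benjamini-Hochberg adjusted p = 0.0534), and without HG replicate 3 it was 1.37 and passed the criteria. In si-FGF9 all libraries lay above NG, at a difference of 0.52 (SE 0.34, adjusted p = 0.189). With median-of-ratios scaling this si-FGF9 difference was 1.52 and was called higher. The ratio of KEAP1 to NFE2L2 TPM, a quantity chosen after the values were seen, was 0.34 to 0.477 in NG, 0.719 to 8.82 in HG, 2.51 to 5.47 in si-FGF9 and 3.07 to 5.86 in HG+OE-FGF9, and it did not overlap between NG and any other group.

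**Figure D3:**
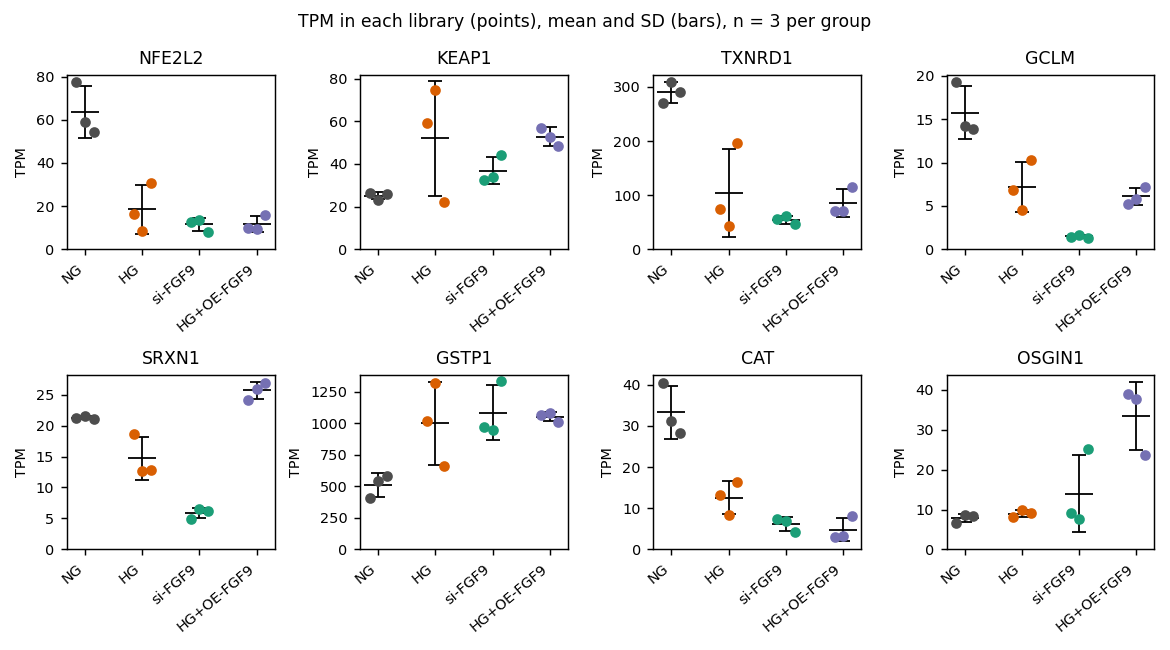
TPM of 8 genes in each of the 12 libraries (points, replicates 1 to 3 from left to right) with the mean and SD of the 3 libraries of a group (bars). NFE2L2, TXNRD1, GCLM and CAT are highest in NG, KEAP1 and GSTP1 are lower in NG than in most other libraries, SRXN1 is lowest in si-FGF9 at 4.97 to 6.56 TPM and OSGIN1 highest in HG+OE-FGF9 replicates 1 and 2.

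All 3 genes of glutathione synthesis and recycling were lower than NG in HG and in si-FGF9 at an adjusted p below 0.05, a threshold at which 40.5% and 57.7% of all tested genes were lower. After GC correction they no longer fell together, as given gene by gene. GCLC and GCLM encode the catalytic and modifier subunits of glutamate-cysteine ligase, the rate-limiting enzyme of glutathione synthesis. GCLM (ENSG00000023909) was at 19.3, 14.2 and 13.8 TPM in NG, 6.78, 4.51 and 10.3 TPM in HG, 1.43, 1.64 and 1.34 TPM in si-FGF9 and 5.25, 5.80 and 7.20 TPM in HG+OE-FGF9. The groups NG, HG and si-FGF9 did not overlap, and the si-FGF9 libraries were the lowest of all. GCLM fell by 1.08 on the log2 scale in HG (SE 0.25, limma, Benjamini-Hochberg adjusted p = 0.00438) and to 0.0933 of the NG mean in si-FGF9 (log2 fold change -2.75, SE 0.25, adjusted p = 7.42e-06). GCLM has the lowest GC content of the tested genes of the list (37.3%), and after GC correction the HG difference was 0.04 while the si-FGF9 difference was -1.10 and still called. GCLC was at 11.3 to 13.5 TPM in NG, 2.89 to 7.59 in HG, 1.45 to 3.80 in si-FGF9 and 3.54 to 6.11 in HG+OE-FGF9. It fell in HG (log2 fold change -1.17, SE 0.32, limma, Benjamini-Hochberg adjusted p = 0.0105) and in si-FGF9 (-2.04, SE 0.32, adjusted p = 0.000129), and neither fall was called after GC correction (-0.48 and -0.93).

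GSR, glutathione reductase, which regenerates reduced glutathione with NADPH, was at 16.7 to 18.5 TPM in NG, 7.10 to 13.1 in HG, 6.59 to 8.76 in si-FGF9 and 8.98 to 11.6 in HG+OE-FGF9. It was lower than NG in HG (log2 fold change -0.87, limma, Benjamini-Hochberg adjusted p = 0.00592) and si-FGF9 (-1.06, adjusted p = 0.000712), and met the fold criterion only in si-FGF9. After GC correction the differences were -0.46 in HG and -0.30 in si-FGF9 (adjusted p = 0.0491 and 0.123), and with median-of-ratios scaling -0.38 and -0.11, so the si-FGF9 call was lost under both. None of these 3 genes passed between HG+OE-FGF9 and HG, where the intervals ran from -0.86 to 0.54 for GCLC, -0.70 to 0.38 for GCLM and -0.38 to 0.55 for GSR.

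The 2 tested glutathione peroxidases were higher than NG in HG and si-FGF9 at an adjusted p below 0.05, a threshold at which 8.53% and 11.6% of all tested genes were higher. GPX1, the abundant cytosolic enzyme, and GPX4, which reduces lipid hydroperoxides, are selenoproteins. GPX4 was at 504, 558 and 584 TPM in NG, 694, 838 and 851 TPM in HG, 1069, 1008 and 1141 TPM in si-FGF9 and 1062, 1050.5 and 956 TPM in HG+OE-FGF9. Every HG library was above every NG library, and every si-FGF9 and HG+OE-FGF9 library was above every HG library. GPX4 was higher than NG by 0.53 in HG (SE 0.12, limma, Benjamini-Hochberg adjusted p = 0.00332) and by 0.97 in si-FGF9 (SE 0.12, adjusted p = 2.19e-05), below the fold criterion in both. GPX1 was at 173 to 228 TPM in NG, 285 to 354 in HG, 345 to 395 in si-FGF9 and 381 to 487 in HG+OE-FGF9. It exceeded NG by 0.61 in HG (adjusted p = 0.00561) and 0.84 in si-FGF9 (adjusted p = 0.000269), and exceeded HG by 0.52 under FGF9 overexpression (adjusted p = 0.0448). GPX1 and GPX4 have GC contents of 64.2% and 62.5%, among the highest of the list, and after GC correction neither passed in HG (0.29 and 0.29, adjusted p = 0.0606 and 0.085), while both still passed in si-FGF9 (0.59 and 0.83, adjusted p = 0.000828 and 0.000144). With median-of-ratios scaling GPX1 exceeded NG by 1.118 in HG and 1.871 in si-FGF9, and GPX4 by 1.045 and 2.00. GPX2, an intestinal form, was listed at 0 TPM in 9 libraries and at no more than 0.22 TPM in the others.

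In the thioredoxin system the reductase fell, while thioredoxin itself did not pass in any comparison with TPM as deposited. TXNRD1 (ENSG00000198431), the selenoenzyme that reduces thioredoxin with NADPH, was at 271, 309 and 290.2 TPM in NG, 73.7, 42.0 and 196 TPM in HG, 55.7, 60.8 and 46.5 TPM in si-FGF9 and 70.1, 71.3 and 116 TPM in HG+OE-FGF9. All libraries outside NG were below the NG range, and HG replicate 3 was again the closest to it. TXNRD1 fell to 0.359 of the NG mean in HG (log2 fold change -1.76, SE 0.41, limma, Benjamini-Hochberg adjusted p = 0.00504) and to 0.187 in si-FGF9 (-2.40, SE 0.41, adjusted p = 0.000257). Both calls held after GC correction (-1.12 and -1.34), and without HG replicate 3 the HG difference was -2.36. TXN, thioredoxin, stood at 602 to 1047 TPM over all 12 libraries, with overlapping groups and differences from NG of -0.03 in HG (95% interval -0.42 to 0.37) and 0.16 in si-FGF9 (-0.23 to 0.56). Its GC content is 42.8%. With GC correction the differences became 0.80 in HG (limma, Benjamini-Hochberg adjusted p = 0.00183) and 1.46 in si-FGF9. With median-of-ratios scaling they were 0.49 and 1.20. The si-FGF9 difference was called higher under both.

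SRXN1, sulfiredoxin, which repairs over-oxidised peroxiredoxins, separated all 4 groups. It was at 21.3, 21.5 and 21.1 TPM in NG, 18.6, 12.6 and 12.8 TPM in HG, 4.97, 6.56 and 6.21 TPM in si-FGF9 and 24.1, 25.9 and 26.9 TPM in HG+OE-FGF9. The order was si-FGF9, HG, NG and HG+OE-FGF9 with no overlap between any of the 4 groups. SRXN1 fell by 1.70 on the log2 scale in si-FGF9 (SE 0.17, limma, Benjamini-Hochberg adjusted p = 1.07e-05), was lower in HG by a log2 fold change of -0.53 (SE 0.17, adjusted p = 0.024) and exceeded HG under FGF9 overexpression by 0.79 (SE 0.17, adjusted p = 0.0158). The si-FGF9 call held after GC correction (-1.25) and not with median-of-ratios scaling (-0.75), under which the HG difference was -0.04. PRDX1, an abundant peroxiredoxin that reduces hydrogen peroxide, was at 1788 to 2047 TPM in NG, 1350.2 to 1805 in HG, 1128 to 1211 in si-FGF9 and 1383 to 1897 in HG+OE-FGF9. It was lower in si-FGF9 than in NG by a log2 fold change of -0.68 (adjusted p = 0.0013), a sign that turned with median-of-ratios scaling (0.36), and the difference did not pass after GC correction (-0.10).

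Of the 4 genes of NADPH supply, ME1 was reduced and TALDO1 was higher. ME1, cytosolic malic enzyme, was at 33.2, 29.2 and 26.9 TPM in NG, 12.8, 7.86 and 16.8 TPM in HG, 7.07, 6.45 and 4.95 TPM in si-FGF9 and 6.08, 5.95 and 9.49 TPM in HG+OE-FGF9. All libraries outside NG lay below it, and the si-FGF9 libraries lay below all HG libraries. ME1 fell in HG (log2 fold change -1.25, limma, Benjamini-Hochberg adjusted p = 0.00272) and in si-FGF9 (-2.11, adjusted p = 2.55e-05), but at a GC content of 39.5% the differences after GC correction were -0.19 and -0.52, neither of them called. TALDO1, transaldolase of the pentose phosphate pathway, was at 182 to 185 TPM in NG, 199.8 to 297 in HG, 268 to 313 in si-FGF9 and 294 to 335 in HG+OE-FGF9, and exceeded NG by 0.48 in HG and 0.64 in si-FGF9 (adjusted p = 0.0175 and 0.00189). PGD, the decarboxylating dehydrogenase of the same pathway, stood at 79.3 to 82.6 TPM in NG and at 51.1 to 55.8 in si-FGF9, a log2 fold change of -0.59 (adjusted p = 0.00541). TKT, transketolase, was at 341 to 399 TPM in NG, 300.2 to 410 in HG, 245 to 328 in si-FGF9 and 197 to 268 in HG+OE-FGF9. It was lower in si-FGF9 than in NG (-0.45, adjusted p = 0.0298) and under FGF9 overexpression than in HG alone (-0.66, adjusted p = 0.0287), where the libraries did not overlap. The si-FGF9 differences of PGD and TKT turned positive with median-of-ratios scaling (0.43 and 0.58) and did not pass after GC correction (-0.10 and -0.15). TALDO1 exceeded NG by 0.50 in HG and 0.91 in si-FGF9 after GC correction, and by 0.99 and 1.67 with median-of-ratios scaling.

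The ferritins carried most of the RNA of the list. FTL and FTH1, the light and heavy subunits of the iron storage protein, made up 63.9% to 77.4% of the summed TPM of the 33 genes. FTL was at 6496, 9167 and 9112 TPM in NG, 7163, 7911 and 12239 TPM in HG, 13571, 13704 and 12386 TPM in si-FGF9 and 15482, 14982 and 11515 TPM in HG+OE-FGF9. NG and HG overlapped, the si-FGF9 libraries were all above both, and HG replicate 3 was the highest HG library. FTL was higher in si-FGF9 than in NG by 0.70 (SE 0.20, limma, Benjamini-Hochberg adjusted p = 0.00823) and FTH1 by 0.51 (SE 0.10, adjusted p = 0.000782), from 5532 to 6175 TPM of FTH1 in NG to 8021 to 8747 in si-FGF9. In HG+OE-FGF9 versus HG the FTL difference of 0.65 (adjusted p = 0.0635) did not pass. Since a TPM is a share of its library, the 33 genes together took 1.88% to 2.21% of all TPM in NG, 2.05% to 2.68% in HG, 2.74% to 2.91% in si-FGF9 and 2.64% to 3.01% in HG+OE-FGF9. With TPM as deposited, more of these genes were called lower than higher in HG and si-FGF9 versus NG. In HG+OE-FGF9 versus HG as many were called lower as higher. The TPM listed for near-identical pseudogenes were low: 25 FTH1 pseudogenes summed to at most 0.172% of FTH1, and 16 FTL pseudogenes to at most 1.18 TPM. How reads shared between a ferritin and its pseudogenes were assigned is unknown.

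HMOX1 and NQO1, which are widely used as markers of NRF2 activity, did not pass in any comparison with TPM as deposited. NQO1, a quinone reductase, was at 282, 269 and 286 TPM in NG, 317, 307 and 263 TPM in HG, 283, 283 and 319 TPM in si-FGF9 and 375, 364 and 330.1 TPM in HG+OE-FGF9. The 3 HG+OE-FGF9 libraries lay above the other 9, and their difference from HG was 0.27 (SE 0.11, limma, Benjamini-Hochberg adjusted p = 0.143). The differences from NG were 0.08 in HG (95% interval -0.17 to 0.33) and 0.08 in si-FGF9 (-0.17 to 0.32), so a change of 1 was outside both intervals on this scale. GC correction gave 0.62 and 1.01 and median-of-ratios scaling 0.59 and 1.11, and the si-FGF9 difference was called higher under both. HMOX1, haem oxygenase 1, which degrades haem, was at 30.0, 35.5 and 42.3 TPM in NG, 37.8, 42.5 and 33.5 TPM in HG, 32.4, 33.02 and 33.3 TPM in si-FGF9 and 56.1, 54.0 and 38.5 TPM in HG+OE-FGF9. HG and NG overlapped, and HG+OE-FGF9 replicate 3 lay within the HG range while its replicates 1 and 2 lay above it. The HG difference of HMOX1 was 0.08 (-0.30 to 0.47) and that of HG+OE-FGF9 from HG was 0.36 (-0.02 to 0.75). After GC correction HMOX1 differed from NG by 0.03 in HG and 0.05 in si-FGF9. With median-of-ratios scaling these differences were 0.58 and 0.89, below the fold criterion.

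The 4 aldo-keto reductases of the list stood at no more than 15.7 TPM in any library. AKR1C3, which reduces steroid and prostaglandin ketones, fell from 11.8 to 15.7 TPM in NG to 5.78 to 6.39 in si-FGF9 (log2 fold change -1.05, SE 0.18, limma, Benjamini-Hochberg adjusted p = 0.000236), a difference that turned to 0.42 after GC correction at a GC content of 41.2%. In HG it was at 6.51 to 9.74 TPM, a difference from NG of -0.63 (adjusted p = 0.0125) that turned to 0.33 after GC correction and was -0.16 with median-of-ratios scaling, and in HG+OE-FGF9 at 7.44 to 7.89 TPM. AKR1C1 stood at 3.76 to 11.6 TPM over all libraries with overlapping groups, and both ends of that range were HG libraries. AKR1C2 reached at most 1.36 TPM and AKR1B10 at most 1.09 TPM, in NG replicate 1 in each case, and both were too low to test. AKR1C1 and AKR1C2 are near-identical paralogues, so the division of reads between them is uncertain.

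Among the enzymes that remove superoxide and peroxide, catalase and the mitochondrial dismutase fell while the cytosolic dismutase did not. CAT, catalase, was at 40.4, 31.1 and 28.2 TPM in NG, 13.2, 8.30 and 16.3 TPM in HG, 7.39, 6.81 and 4.23 TPM in si-FGF9 and 3.12, 3.27 and 8.10 TPM in HG+OE-FGF9. NG was above all other libraries, and both the si-FGF9 and the HG+OE-FGF9 libraries were below all HG libraries. CAT fell in HG (log2 fold change -1.36, SE 0.33, limma, Benjamini-Hochberg adjusted p = 0.00576) and si-FGF9 (-2.27, SE 0.33, adjusted p = 7.65e-05), and fell further with FGF9 overexpression relative to HG (-1.28, SE 0.33, adjusted p = 0.0326). After GC correction the si-FGF9 and HG+OE-FGF9 calls held (-1.26 and -1.16) and the HG call did not (-0.75). The HG+OE-FGF9 call was lost without HG replicate 3 and without either HG+OE-FGF9 replicate 1 or 2 (differences of -1.08, -1.08 and -1.10), and with replicates 1 and 2 counted as 1 sample (-1.09).

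SOD2, the manganese superoxide dismutase of mitochondria, was at 451, 438 and 417 TPM in NG, 193, 134 and 261 TPM in HG, 143, 166 and 124 TPM in si-FGF9 and 86.3, 89.1 and 135 TPM in HG+OE-FGF9. NG lay above all other libraries, and HG overlapped with si-FGF9 and, by HG replicate 2, with HG+OE-FGF9. SOD2 fell in HG (log2 fold change -1.20, limma, Benjamini-Hochberg adjusted p = 0.00207) and si-FGF9 (-1.59, adjusted p = 7.65e-05), with GC-corrected differences of -0.28 and -0.18 that were not called. With FGF9 overexpression it was lower than in HG by a log2 fold change of -0.89 (adjusted p = 0.033). SOD1, the copper-zinc enzyme of the cytosol, was at 395 to 441 TPM in NG, 468 to 531 in HG, 466 to 507 in si-FGF9 and 499 to 585 in HG+OE-FGF9, higher than NG by 0.29 in HG (adjusted p = 0.0449), with a difference of 0.24 in si-FGF9 that did not pass (adjusted p = 0.0692). After GC correction SOD1 exceeded NG by 0.44 in HG and 0.68 in si-FGF9 (limma, adjusted p = 0.00675 and 0.000128). With median-of-ratios scaling these differences were 0.80 and 1.27. SOD1 per SOD2 TPM, a ratio chosen after the values were seen, was 0.908 to 0.978 in NG and 1.95 to 5.79 in the other 9 libraries.

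Conjugation and export genes were divided. GSTP1, a glutathione transferase that conjugates electrophiles and the only gene of the list called higher in si-FGF9, was at 404, 538 and 584 TPM in NG, 1016, 1321 and 660.1 TPM in HG, 968, 947 and 1337 TPM in si-FGF9 and 1065, 1081 and 1012 TPM in HG+OE-FGF9. All libraries outside NG were above NG, with HG replicate 3 the nearest to it. GSTP1 rose by 1.09 in si-FGF9 (SE 0.23, limma, Benjamini-Hochberg adjusted p = 0.00112) and was higher by 0.93 in HG (SE 0.23, adjusted p = 0.00635), where leaving out HG replicate 3 gave 1.20. The si-FGF9 value lay close to the fold criterion and was 0.93 without NG replicate 1 or si-FGF9 replicate 3, 0.96 after GC correction and 2.12 with median-of-ratios scaling. EPHX1, microsomal epoxide hydrolase, was at 127 to 130.3 TPM in NG and at 165 to 232 TPM in the other 9 libraries, with differences of 0.59 in HG and 0.54 in si-FGF9 (adjusted p = 0.00419 and 0.003). These differences of EPHX1 were 0.61 and 0.81 after GC correction and 1.10 and 1.57 with median-of-ratios scaling.

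MGST1, a membrane-bound glutathione transferase, went down instead, from 434, 337 and 390.1 TPM in NG to 181, 115 and 329.6 TPM in HG, 175, 186 and 151 TPM in si-FGF9 and 215, 212 and 272 TPM in HG+OE-FGF9. HG replicate 3 was just below the lowest NG library, and the other HG libraries were far lower. MGST1 fell in HG (log2 fold change -1.02, SE 0.29, limma, Benjamini-Hochberg adjusted p = 0.0127) and si-FGF9 (-1.18, SE 0.29, adjusted p = 0.00306), with GC-corrected differences of -0.15 and 0.18 at a GC content of 42.3%. ABCC1, which exports glutathione conjugates, fell from 19.7 to 21.3 TPM in NG to 6.69 to 8.21 in si-FGF9 (-1.35, SE 0.19, adjusted p = 5.56e-05) and was at 11.4 to 16.3 TPM in HG (-0.63, adjusted p = 0.0162) and at 7.58 to 11.3 TPM in HG+OE-FGF9 (-0.51 from HG, adjusted p = 0.107). Its si-FGF9 call was lost after GC correction (-0.99) and with median-of-ratios scaling (-0.40). ABCC2, an apical export pump of the same family, did not exceed 0.50 TPM.

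OSGIN1, an NRF2 target that restrains growth under oxidative stress, had the largest rise with FGF9 overexpression on the list. It was at 6.67, 8.63 and 8.40 TPM in NG, 8.02, 9.79 and 9.18 TPM in HG, 9.07, 7.74 and 25.1 TPM in si-FGF9 and 38.9, 37.6 and 23.5 TPM in HG+OE-FGF9. The HG+OE-FGF9 libraries were all above HG, NG and HG overlapped, and si-FGF9 replicate 3 stood with the HG+OE-FGF9 libraries rather than with its own group. OSGIN1 rose 3.71-fold over the HG mean (log2 fold change 1.75, SE 0.35, limma, Benjamini-Hochberg adjusted p = 0.0103), remained called after GC correction (1.70), with median-of-ratios scaling (1.88) and with HG+OE-FGF9 replicates 1 and 2 counted as 1, and gave 1.63 to 1.98 when single libraries were left out. Its difference in si-FGF9 was 0.58 (95% interval -0.18 to 1.33), and 0.08 at the lowest when single libraries were left out.

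**Figure D4:**
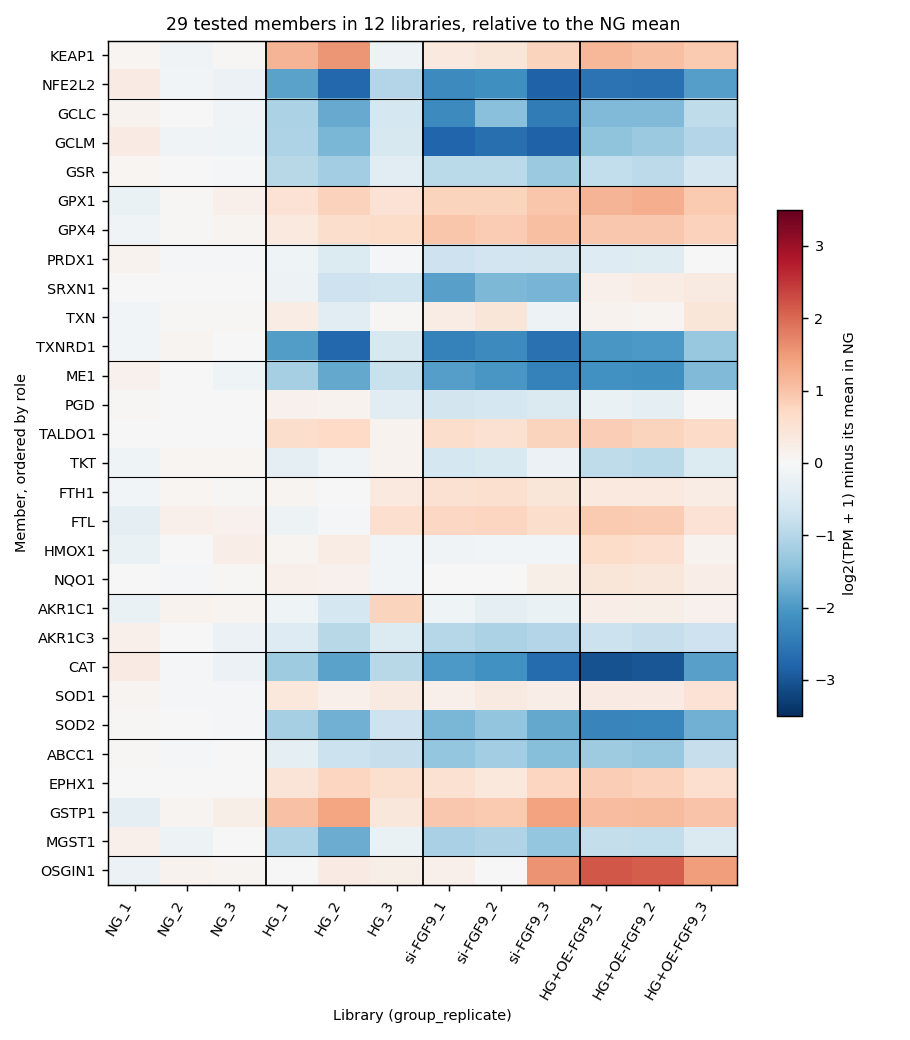
Log2(TPM + 1) of the 29 tested genes in the 12 libraries minus the mean of the gene in NG, ordered by role (horizontal lines) and group (vertical lines). Blue rows (NFE2L2, GCLC, GCLM, TXNRD1, ME1, CAT, SOD2) run through HG, si-FGF9 and HG+OE-FGF9, HG replicate 3 is paler than HG replicates 1 and 2 in most of them, and OSGIN1 is reddest in HG+OE-FGF9.

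The number of calls depended on single libraries in places. In HG versus NG, 3 genes (NFE2L2, TXNRD1 and CAT) stayed lower without HG replicate 2 and 5 without NG replicate 1, whereas 9 were lower and 2 (KEAP1 and GSTP1) higher without HG replicate 3. GSTP1 was also called higher in HG without NG replicate 3. NFE2L2 and TXNRD1 were called lower in HG whichever single library was left out. In si-FGF9 versus NG, 11 or 12 genes were lower, and the count of higher genes was 0 without NG replicate 1 or si-FGF9 replicate 3 and 2 (GSTP1 and GPX4) without NG replicate 3 or si-FGF9 replicate 2. In HG+OE-FGF9 versus HG, CAT and SOD2 were both lower without HG replicate 2 or HG+OE-FGF9 replicate 3. The share of all tested genes called without each library was not computed, so these counts describe the list only.

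A wider list of 58 glutathione, peroxiredoxin, iron, aldehyde and NRF2-related symbols (59 identifiers, 50 tested) gave 7 lower and 0 higher genes in HG, 12 lower and 2 higher in si-FGF9, and 1 lower and 3 higher in HG+OE-FGF9 versus HG, with median log2 fold changes of 0.05, -0.27 and 0.02. The shares of all tested genes called lower and higher were 22.7% and 1.65%, 42.2% and 5.36%, and 2.67% and 2.94%. After GC correction the wider list gave 0 lower and 2 higher genes in HG, beside 3.09% and 3.88% of all tested genes. In si-FGF9 it gave 3 lower and 9 higher, beside 11.9% and 12.7%. HG+OE-FGF9 versus HG kept its counts of 1 lower and 3 higher, beside 2.14% and 3.18%. BACH1, the repressor that competes with NRF2 for its binding sites, averaged 17.1 ± 1.20 TPM (SD, n = 3) in NG and fell to 4.43 ± 3.36 TPM in HG (log2 fold change -1.92, limma, Benjamini-Hochberg adjusted p = 0.00146) and to 3.07 ± 0.45 TPM in si-FGF9 (-2.16, adjusted p = 0.000128), and it was not called after GC correction in either (-0.83 and -0.53). ABCC4, an organic anion exporter, fell from 7.77 ± 0.48 TPM to 2.12 ± 0.86 in HG (-1.53, adjusted p = 0.000936), a call that was lost after GC correction (-0.74). PRDX3, the mitochondrial peroxiredoxin, fell from 199 ± 30.6 TPM to 38.0 ± 12.6 in si-FGF9 (-2.40, adjusted p = 7.72e-05; -1.14 after GC correction, still called). SOD3, the secreted dismutase, rose from 7.77 ± 2.06 to 27.5 ± 1.65 TPM in si-FGF9 (1.73, adjusted p = 1.41e-05) and PRDX5, a peroxiredoxin of several compartments, from 211 ± 20.8 to 469 ± 60.9 TPM (1.15, adjusted p = 5e-05).

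With FGF9 overexpression, SLC3A2, the heavy chain of the cystine and of several amino acid transporters, rose from 74.8 ± 21.8 TPM (SD, n = 3) in HG to 224 ± 25.6 (log2 fold change 1.60, SE 0.18, limma, Benjamini-Hochberg adjusted p = 0.000467), and SESN2, a stress-inducible sestrin, from 7.73 ± 1.34 to 18.7 ± 1.56 TPM (1.19, adjusted p = 0.0187). SLC7A11, the light chain that imports cystine for glutathione synthesis, was the other gene called higher, at 2.77 ± 1.05 TPM against 0.76 ± 0.58 (1.11, adjusted p = 0.0194). All 3 remained called after GC correction. AKR1B1, aldose reductase, which converts glucose to sorbitol, fell from 1163 ± 23.1 to 634 ± 371 TPM in HG+OE-FGF9 (-1.02, adjusted p = 0.0395), with the spread of the second group far larger than that of the first.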

How the data were processed

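RNA-seq of HK2 cells was available as 1 table of values per library and 1 table of all 12 libraries, which held the same values. The deposited values, as made by the authors, are TPM: each library summed to between 999999.32 and 1000000.37. The read counts behind them, and so the depth, are unknown, and no counting interval is given. The submitters' processing notes name Bowtie and the mouse build mm8, which does not suit human Ensembl identifiers. The quantifier and annotation behind these values are not given in the sources used here.

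Symbols came from a table of gene names, which matched 62625 identifiers. Genes that reached 1 TPM in 3 or more of the 12 libraries were tested on log2(TPM + 1) values, with limma 3.58.1 (R 4.3.3), a variance trend and all 4 groups in 1 fit. HG and si-FGF9 were each compared with NG, and HG+OE-FGF9 with HG. Fold changes are on the log2(TPM + 1) scale, which understates those of low genes. P-values were adjusted by Benjamini and Hochberg over all tested genes. The test code was checked on simulated data.

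GC content was that of the longest GENCODE v29 transcript and was known for 97.4% of tested genes. SOD2 was matched by symbol. The GC correction fitted a spline with 5 degrees of freedom per library. Other alternatives were the filter, the pseudocount (0.1), the 6 libraries of each comparison alone, quantile and median-of-ratios scaling, removal of mitochondrially encoded genes, adding pseudogenes, a replicate block and leaving out each library. Counting HG+OE-FGF9 replicates 1 and 2 as 1 was chosen after seeing the data. The comparisons used 3 libraries per group, so that an exact permutation test could not give a two-sided p below 0.1 and none was used.

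The 33 genes and the other lists were chosen with earlier results of these data known. All 33 are named, and from the wider list the 2 largest rises and 2 largest falls among the called genes of each comparison. SLC7A11, named besides, was chosen after its values were seen.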

Additional observations from a re-analysis of the deposited data

How the results depend on the processing

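In HG versus NG, the higher count of called genes of the list was 0 and became 5 with median-of-ratios scaling, 1 with quantile normalization and 6 at an adjusted p under 0.05 with any fold, and ranged from 0 to 2 when single libraries were left out. The lower count of 8 became 2 with median-of-ratios scaling, 3 with quantile normalization, 2 with GC correction, 2 with GC correction and the replicate block and 12 at an adjusted p under 0.05, and ranged from 3 to 9 without single libraries. In si-FGF9 versus NG, the higher count of 1 became 12 with median-of-ratios scaling, 3 with quantile normalization, 0 without mitochondrially encoded genes, 4 with GC correction, 4 with GC correction and the replicate block and 7 at an adjusted p under 0.05, and ranged from 0 to 2 without single libraries. The lower count of 12 became 6 with median-of-ratios scaling, 8 with quantile normalization, 15 at an adjusted p under 0.05 and 5 with GC correction, with or without the replicate block, and ranged from 11 to 12 without single libraries. In HG+OE-FGF9 versus HG, the higher and lower counts of 1 each became 3 and 3 at an adjusted p under 0.05. The lower count was 0 in a fit of the 6 libraries of the comparison alone and with HG+OE-FGF9 replicates 1 and 2 as 1 sample, and ranged from 0 to 2 without single libraries. With GC correction, with or without the replicate block, the sign turned for the following genes called before or after it: GCLM in HG (0.037) and AKR1C1 (1.11), AKR1C3 (0.42) and MGST1 (0.18) in si-FGF9. Genes called in neither also turned sign, among them AKR1C3 (0.33), AKR1C1 (0.86) and TXN (0.80) in HG. In the 6-library fits TXNRD1 (-1.76) and MGST1 (-1.02) in HG no longer passed. The cause of these shifts was not tested. Shares of all tested genes were computed only for the criteria of the study, the adjusted p threshold, GC correction and median-of-ratios scaling. Counts from any other setting cannot be set against all genes. These include quantile normalization, removal of mitochondrially encoded genes, the replicate block with or without GC correction and the 6-library fits. They also include single libraries left out and HG+OE-FGF9 replicates 1 and 2 as 1 sample. Same-numbered libraries deviated from their group means with correlations of -0.44 to 0.25. With 3 libraries per group these do not settle whether the replicate numbers pair the libraries, and the labels do not say. With the replicate block alone the higher counts (0 for HG, 1 for si-FGF9 and 1 for HG+OE-FGF9) and the lower counts (8, 12 and 1) were those of the fit without it. The depth is unknown, which limits what can be said of genes under 1 TPM.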
